A study of Sus scrofa with 14 samples.

Results

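The lentiviral induced line Lv-piPSC-F was compared with pESCLC-primary, the outgrowths that formed when porcine blastocysts or their inner cell masses were plated. These 4 of the 14 samples were taken by their labels, and 14375 of the 19588 genes in the table were tested, those that reached 10 normalized counts in 2 or more of these samples. A normalized count is a read count divided by the size factor of its sample. Lv-piPSC-F is the piPSC line ID6, reprogrammed with a lentiviral vector and maintained in F, here a DMEM/F12 medium with serum replacement and FGF2. The pESCLC-primary samples carried no vector and were in F as used for embryos, made of low-glucose DMEM and Ham's F10 with fetal bovine serum and FGF2. Both kinds of cells were on irradiated mouse embryonic fibroblasts (iMEF). The labels give passage 46 for the second Lv-piPSC-F sample and no passage for the other 3. The study describes the duplicates of each line as different passages. The 2 Lv-piPSC-F samples carry different codes, and whether they are the same subline is not given in the sources used here. Origin, vector, base medium and time in culture all changed together between the groups, so they cannot be told apart. An outgrowth can hold cells of several embryonic lineages, and in bulk RNA fewer cells of a type and less RNA per cell cannot be told apart. Reads from feeder cells or from the lentiviral reprogramming genes may be among those counted on pig genes, and their part was not tested.

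By way of background, the mammalian blastocyst holds 3 kinds of cells. The trophectoderm forms the outer layer and later the placenta, the hypoblast gives rise to the visceral endoderm and the yolk sac, and the epiblast gives rise to the embryo proper. Stem cells in FGF2 medium resemble the late or primed epiblast, which NODAL and FGF signals hold short of gastrulation, while BMP and WNT signals drive epiblast cells into mesoderm and endoderm. Pluripotent cells in culture can also change at imprinted genes, which are normally expressed from the copy of one parent.

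The samples had 17887375 and 16493637 reads on genes in pESCLC-primary and 17411166 and 58878377 in Lv-piPSC-F. One read was therefore worth 0.984 and 1.09 normalized counts in pESCLC-primary, and 1.1 and 0.348 in Lv-piPSC-F. The Lv-piPSC-F duplicates were less alike than those of pESCLC-primary. Across the 14375 genes, Pearson's r on log2(normalized count + 1) was 0.897 between the 2 Lv-piPSC-F samples and 0.972 between the 2 outgrowths. Genes are not independent replicates, so this is a description. The Lv-piPSC-F samples were at least 8-fold apart in 748 genes (5.2%), of which 449 were higher in the second sample and 299 in the first. The outgrowths were that far apart in 75 genes (0.522%), and 67 of these were higher in the first outgrowth. The plot of the Lv-piPSC-F duplicates shows that many of the discordant genes were abundant.

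**Figure D1:**
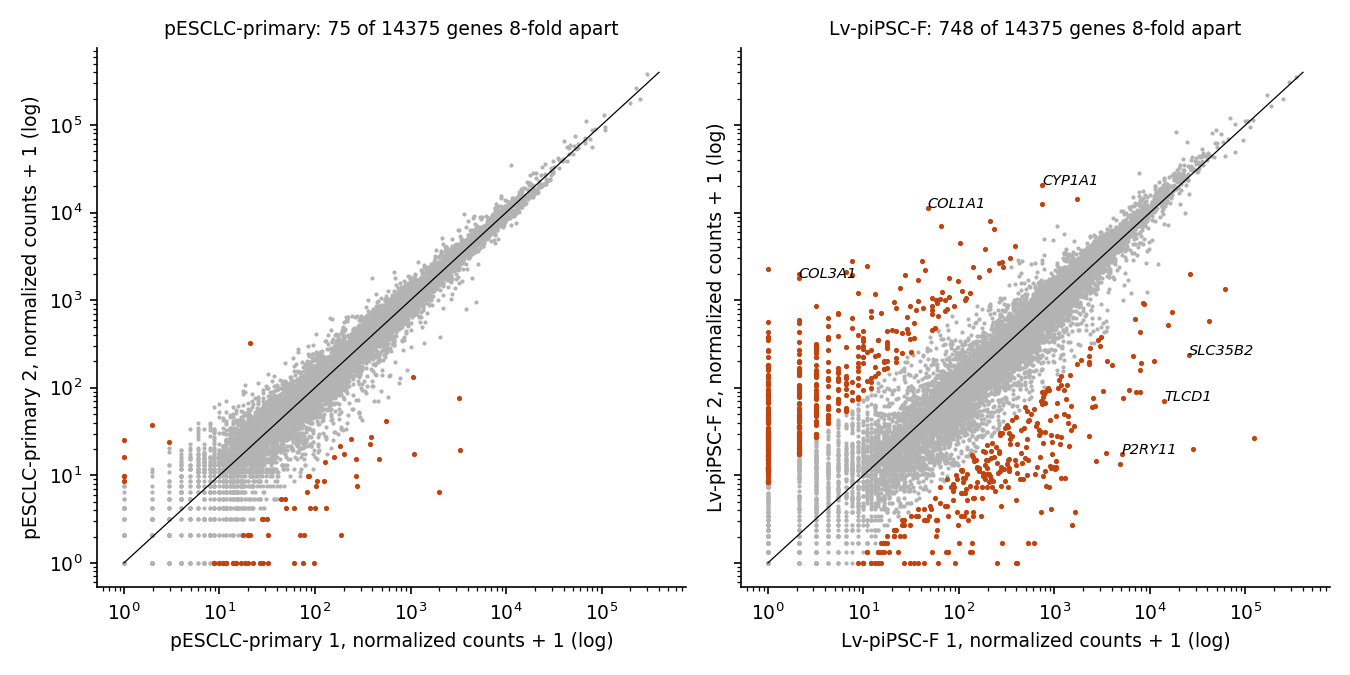
Normalized counts (+ 1, log axes) of the 14375 tested genes in the first (x) and the second sample (y) of pESCLC-primary (left) and Lv-piPSC-F (right), each point a gene, with those at least 8-fold apart in orange and a line of equal values. There are 75 orange points for pESCLC-primary and 748 for Lv-piPSC-F, of which 449 lie above the line (COL1A1, CYP1A1) and 299 below it (TLCD1, SLC35B2).

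Genes that differed 8-fold or more in either direction (3 on the log2 scale) with an adjusted p of at most 0.05 were taken as differentially expressed (DEGs). Log2 fold changes are those of log2(normalized count + 1), Lv-piPSC-F relative to pESCLC-primary, and are given ± standard error. Adjusted p-values are from limma, unless another tool is named, across all genes of the comparison with Benjamini-Hochberg adjustment. There were 1218 DEGs (8.47% of the genes tested), and they were more often lower than higher in Lv-piPSC-F. Of them 435 (3.03%) rose and 783 (5.45%) fell, while the median log2 fold change of all genes was -0.03. All 1218 had groups that did not overlap, but so did most genes. Both Lv-piPSC-F samples were above both outgrowths in 37.3% of the genes tested and below both in 38.0%, and 36.9% had an adjusted p of at most 0.05 at any fold. The study counts 2 outgrowths but gives the duplicates of a line as passages of it, so on the side of the line the p-values measure only the spread between these samples. A gene that was present in only 1 of the groups had to differ: 435 genes passed the filter through Lv-piPSC-F alone and 238 of these were DEGs, as were 359 of the 615 that passed through pESCLC-primary alone. Of the DEGs that fell, 174 had at most 3 reads in both Lv-piPSC-F samples. Of those that rose, 146 had at most 3 reads in both outgrowths. The fitted fold change of such a gene depends on the 1 count added before the log, and where a group had 0 reads in both samples a lower bound against 3 reads per library is given as well. The 3 reads cover counting error only.

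Most of the hypoblast and visceral endoderm genes tested fell (60%, against 5.45% of all genes tested), several of them to almost no reads in Lv-piPSC-F. Of 20 members of that list that were tested, 12 fell and none rose, with a median log2 fold change of -5.24, and 11 or 12 fell in fits on all groups that left out each of the 4 samples in turn (pooled fits). The list summed to 201342 and 281035 normalized counts in the outgrowths and to 22428 and 20679 in Lv-piPSC-F, and APOA1 was its most abundant gene. HNF4A, a nuclear receptor of the visceral endoderm and liver (chr17:46783772-46847505 in Sscrofa11.1), had 7811 and 8335 normalized counts in the outgrowths and 1.1 and 0 in Lv-piPSC-F, where it had 1 read in all. Its log2 fold change was -12.44 ± 0.50 (adjusted p = 0.00299), the largest fall among genes with a symbol. GATA4, a zinc finger factor of the primitive endoderm, had 6692 and 8623 normalized counts in the outgrowths against 8.8 and 0 in Lv-piPSC-F (-11.24 ± 1.12, adjusted p = 0.00574). FOXA2, a forkhead factor of the endoderm, went from 3030 and 3287 to 0 and 1.04 normalized counts (-11.11 ± 0.54). Each of these 3 transcription factors had at most 8 reads in either Lv-piPSC-F sample, far below both outgrowths.

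Several genes that such factors are known to serve in endoderm fell as well. APOA1, the main protein of high-density lipoprotein, had 68583 and 111894 normalized counts in the outgrowths and 173 and 161 in Lv-piPSC-F (-9.03 ± 0.26, adjusted p = 0.00242). RBP4, the carrier of retinol (-8.21), APOA2 (-7.60), transferrin (TF, -7.48) and APOE (-4.11) fell too. COL4A2, a collagen of basement membranes, had 20843 and 28654 normalized counts against 731 and 721 (-5.07 ± 0.19). The receptor PDGFRA and the factor FOXA1 also fell. The fall did not take in the whole list. GATA6, an early factor of the hypoblast, had 2740 and 2561 normalized counts in the outgrowths and still 668 and 1299 in Lv-piPSC-F (-1.51 ± 0.34, below the fold threshold). The laminin genes LAMB1 (-1.23) and LAMC1 (-0.35) were also below it. So were the secreted proteins FGB (-2.93), APOB (-2.14) and TTR (-0.55). In the plot of single genes, the Lv-piPSC-F points of HNF4A lie far under those of the outgrowths, while those of GATA6 are close to them.

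**Figure D2:**
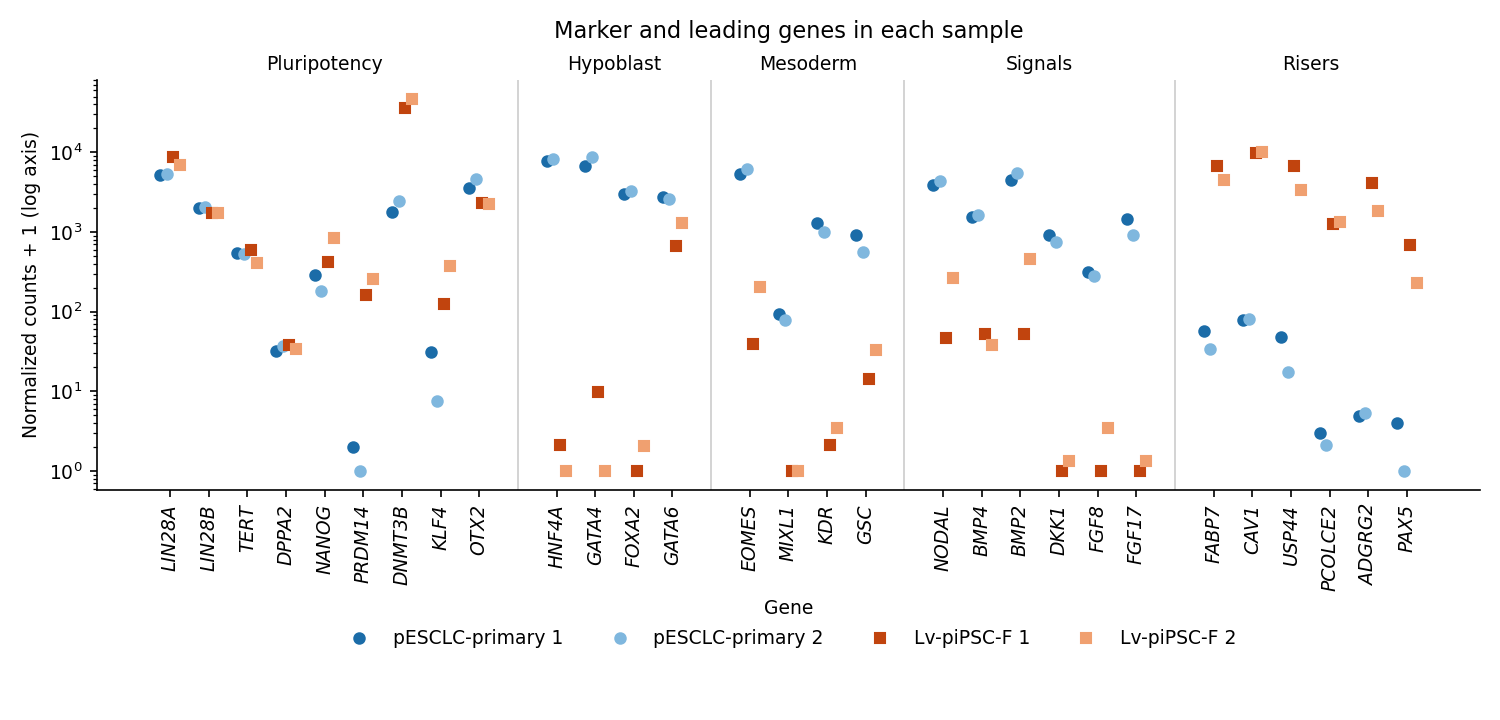
Normalized counts (+ 1, log axis) of single genes in each of the 4 samples, with blue circles for pESCLC-primary and orange squares for Lv-piPSC-F; no error is drawn. HNF4A and FOXA2 reach at most 1.1 normalized counts in Lv-piPSC-F against 3030 or more in the outgrowths, while LIN28B, TERT and DPPA2 lie at like levels in all 4.

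The 250 bases before the RefSeq start of 2 of these genes are printed because the genes fell together. Capitals mark AGATAA, known from GATA factors, in HNF4A, and CAAAGT, known from HNF4 factors, with TGTTTAC, known from FOXA factors, in APOA2. Matches were read on either strand, so that the reverse complement ACTTTG is in capitals too. No 2 of the capital stretches overlap. Both are from RefSeq for Sscrofa11.1 and run 5′ to 3′ on the strand of the gene, which is the plus strand for both: HNF4A at chr17:46783522-46783771 and APOA2 at chr4:89237264-89237513.
HNF4A: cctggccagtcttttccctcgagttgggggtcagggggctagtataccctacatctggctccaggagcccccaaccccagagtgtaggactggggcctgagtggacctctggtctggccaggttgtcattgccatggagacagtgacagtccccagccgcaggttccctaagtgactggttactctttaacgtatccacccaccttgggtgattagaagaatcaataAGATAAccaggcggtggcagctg
APOA2: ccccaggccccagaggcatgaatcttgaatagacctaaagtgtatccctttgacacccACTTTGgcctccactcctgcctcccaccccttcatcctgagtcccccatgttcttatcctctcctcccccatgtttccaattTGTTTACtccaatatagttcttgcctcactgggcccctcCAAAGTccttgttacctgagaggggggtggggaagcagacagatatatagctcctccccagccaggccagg
Of the 11161 tested genes with a promoter sequence, 6.12% held AGATAA, 9.09% CAAAGT and 1.99% TGTTTAC. These matches describe the letters of short windows and are not measured binding sites.

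Genes of mesoderm and of gastrulation fell as well, 46.2% of the list against 5.45% of all genes tested. Of 13 tested members, 6 fell and none rose (median -3.20), and the pooled fits without 1 sample had 4 to 6 that fell, with 1 that rose without the second Lv-piPSC-F sample. EOMES, a T-box factor of the primitive streak and the trophoblast, had 5381 and 6221 normalized counts in the outgrowths and 38.5 and 201 in Lv-piPSC-F (-6.02 ± 0.78, adjusted p = 0.00873). KDR, the VEGF receptor of blood vessel precursors, went from 1295 and 991 to 1.1 and 2.44 (-8.72 ± 0.52, adjusted p = 0.00344). MIXL1, a homeobox gene of mesendoderm, had 92.5 and 77.6 normalized counts in the outgrowths and no read in Lv-piPSC-F, at least 23.5-fold lower. GSC, the organizer gene goosecoid (-5.05), HAND2 of the heart and limbs (-4.40) and SNAI2, a repressor in migrating mesoderm (-3.20), fell as well. The 2 outgrowths themselves differed in some of these genes. TBXT, the primitive streak gene brachyury, had 174 and 28.4 normalized counts in them against 7.7 and 1.74 in Lv-piPSC-F and was not a DEG (-3.88 ± 1.14, adjusted p = 0.0543). The vascular cadherin CDH5, the only DEG of 7 blood, endothelial and immune genes tested, had 227 and 66.7 normalized counts in the outgrowths and none in Lv-piPSC-F, at least 20.2-fold lower.

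Of 16 trophectoderm genes, 3 fell and none rose (median -2.10), but 1 fell in the pooled fit without the first outgrowth or without the second Lv-piPSC-F sample. The share of the list that fell was 18.8%, against 5.45% of all genes tested. TP63, a transcription factor of basal epithelia and early trophoblast, had 569 and 540 normalized counts in the outgrowths against 15.4 and 0.348 in Lv-piPSC-F (-6.88 ± 1.25, adjusted p = 0.017). GATA3, a factor of trophoblast fate, went from 1858 and 1683 to 160 and 10.1 (-5.39 ± 1.27, adjusted p = 0.0312), a call that edgeR (adjusted p = 0.0565) and 3 of the 4 pooled fits (0.0516 to 0.076) did not make. The endocytic adaptor DAB2 fell by 3.72, but by 2.55, under the threshold, without the second Lv-piPSC-F sample, and was not called in the fit on all 14 samples (adjusted p = 0.0558) or in any pooled fit (0.0503 to 0.275). CDX2, the homeobox gene of the trophectoderm, had 388 and 26.2 normalized counts in the outgrowths and 9.9 and 8.7 in Lv-piPSC-F (-3.32 ± 1.34, adjusted p = 0.115). The keratins remained abundant: KRT8, an intermediate filament of simple epithelia, had 230905 and 265084 normalized counts in the outgrowths and 61534 and 44803 in Lv-piPSC-F (-2.24 ± 0.30). With its partner KRT18 (-1.97 ± 0.22) it was below the fold threshold.

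**Figure D3:**
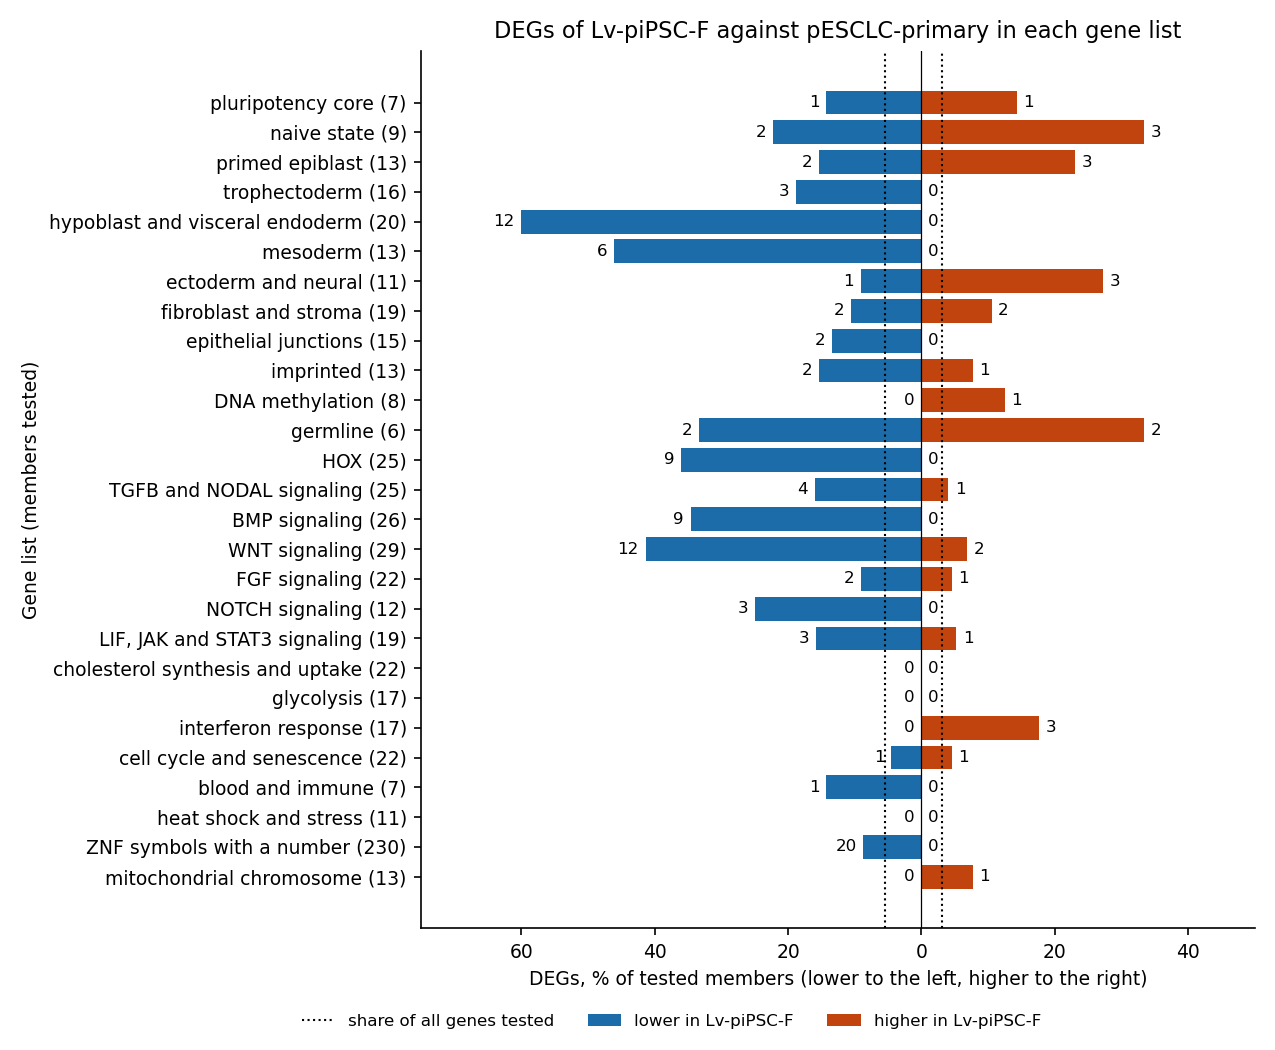
Share of the tested members of each gene list (number tested in parentheses) that were DEGs, with those lower in Lv-piPSC-F drawn to the left in blue and those higher to the right in orange, the number of genes at each bar's end, and dotted lines at the share over all genes tested (5.45% lower, 3.03% higher). The hypoblast bar reaches 60% to the left with 12 genes, and the cholesterol, glycolysis and heat shock lists have no bar.

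The pluripotency genes, in contrast, did not move together. Of the core list of 14, 7 could be paired with an identifier and all 7 were tested, while POU5F1, SOX2 and the others were not analysed here. Their median log2 fold change was 0.05, with 1 gene higher and 1 lower. LIN28A, an RNA-binding protein that blocks let-7 processing, had 5185 and 5313 normalized counts in the outgrowths and 8813 and 7007 in Lv-piPSC-F (0.58 ± 0.16). LIN28B (-0.24), DPPA2 (0.05) and the telomerase gene TERT (-0.10) had adjusted p-values of 0.195 or more. NANOG, a homeobox factor of the epiblast, had 287 and 178 normalized counts in the outgrowths and 418 and 847 in Lv-piPSC-F, above both outgrowths, with a log2 fold change of 1.39 ± 0.45 (adjusted p = 0.0676). Both genes were thus expressed in all 4 samples.

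PRDM14, a repressor of differentiation in epiblast and germ cells (chr4:65273988-65295362), was the core gene that rose. It had 0.984 and 0 normalized counts in the outgrowths against 163 and 257 in Lv-piPSC-F (7.19 ± 0.70, adjusted p = 0.00548). None of the other 12 samples of the series exceeded 1.84 normalized counts. GDF3, a NODAL-related ligand, was the core gene that fell, from 72.8 and 48.1 to 1.1 and 1.04 (-4.86 ± 0.65, adjusted p = 0.00917).

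Genes linked to the naive and the primed state each moved in both directions. Of 9 naive genes, 3 rose (33.3%) and 2 fell (22.2%), against 3.03% and 5.45% of all genes tested (median 2.35). NR0B1, an orphan nuclear receptor, had no read in the outgrowths and 34.1 and 54 normalized counts in Lv-piPSC-F, at least 10.4-fold higher. FGF4, an FGF ligand made by the epiblast, likewise had none in the outgrowths and 24.2 and 22.6 in Lv-piPSC-F, at least 6.9-fold higher, and with a pseudocount of 5 it was under the fold threshold (2.51). KLF4, a Krüppel-like factor and a reprogramming factor, had 30.5 and 6.56 normalized counts in the outgrowths and 122 and 368 in Lv-piPSC-F (3.79 ± 0.95, adjusted p = 0.0363), and reads from a reprogramming vector cannot be told apart from its own. The call was lost in 1 fit on all 14 samples (adjusted p = 0.0808) and in each of the 4 pooled fits (adjusted p from 0.0988 to 0.34). The other reprogramming factor tested was MYC, with 171 and 144 normalized counts in the outgrowths and 205 and 2195 in Lv-piPSC-F (2.09 ± 1.13), of which only the second sample stood apart. TBX3, a T-box factor, fell from 2174 and 1844 to 26.4 and 13.9 normalized counts (-6.63 ± 0.40, adjusted p = 0.00344), and NR5A2 fell by 5.16.

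Of 13 primed epiblast genes, 3 rose (23.1%) and 2 fell (15.4%), against 3.03% and 5.45% of all genes tested (median -0.40). DNMT3B, the de novo DNA methyltransferase of the epiblast (chr17:36345715-36386076), had 1776 and 2427 normalized counts in the outgrowths and 35581 and 47300 in Lv-piPSC-F (4.30 ± 0.24, adjusted p = 0.00344). SFRP2, a secreted WNT antagonist, went from 111 and 50.3 to 1583 and 1155 (4.16 ± 0.45), a call lost in each pooled fit (adjusted p from 0.0601 to 0.147). SOX11, a factor of late epiblast and neural cells, had 596 and 641 normalized counts in the outgrowths and 0 and 7.31 in Lv-piPSC-F (-7.75 ± 1.10, adjusted p = 0.0102). The other 12 samples of the series had between 432 and 1926. OTX2, an anterior epiblast factor, was high in both groups (-0.82 ± 0.17). Of 8 DNA methylation genes tested, DNMT3B was the only DEG. The maintenance enzyme DNMT1 had 5036 and 4880 normalized counts in the outgrowths and 5393 and 4822 in Lv-piPSC-F, whereas its recruiting factor UHRF1 had 3420 and 3394 against 962 and 842 (-1.92 ± 0.14, adjusted p = 0.00407).

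Among 13 imprinted genes tested, 1 rose (7.69%) and 2 fell (15.4%), against 3.03% and 5.45% of all genes tested (median 0.00). PEG3, a paternally expressed zinc finger gene (chr6:61281931-61307788), had 478 and 574 normalized counts in the outgrowths and 0 and 0.696 in Lv-piPSC-F (-8.65 ± 0.60, adjusted p = 0.00389). Of the 2 pESCLC-F samples, 1 also had few reads, with 3.03 normalized counts against 553 in the other. PEG10, a retrotransposon-derived gene of the placenta, rose from 2715 and 2127 to 23437 and 24230 (3.31 ± 0.17), a call lost in the fit on all 14 samples (adjusted p = 0.114) and in each pooled fit (0.225 to 0.291). CDKN1C, a maternally expressed inhibitor of the cell cycle, fell from 440 and 589 to 13.2 and 27.9 (-4.66 ± 0.51). DLK1, NDN and GRB10 were not called. Of 6 germline genes, TDRD1 and TDRD12, which act in the piRNA pathway, rose, and PRDM1 and NANOS3 fell, 33.3% each way. NANOS3 was under the threshold with a pseudocount of 5 (-1.81). The pooled fits had 1 that rose without the second outgrowth, where TDRD12 was at 2.86, under the threshold, 2 without the first Lv-piPSC-F sample and 3 without either of the others. TDRD1 had no read in the outgrowths and 50.6 and 34.8 normalized counts in Lv-piPSC-F, at least 10.6-fold higher. PRDM1, a repressor that specifies germ cells, had 2434 and 2710 normalized counts against 70.4 and 138 (-4.69 ± 0.37).

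Genes of 6 signaling lists were counted beside the 5.45% of all genes tested that fell and the 3.03% that rose. In the BMP list 9 of 26 genes fell and none rose (median -2.32). BMP4, a ligand that induces mesoderm and trophoblast fates, had 1544 and 1649 normalized counts in the outgrowths and 50.6 and 37.6 in Lv-piPSC-F (-5.16 ± 0.28, adjusted p = 0.00344). BMP2 had 4507 and 5504 against 50.6 and 453 (-5.02 ± 1.03, adjusted p = 0.0225), and BMP7 fell by 4.68. The receptors BMPR1A (-0.46), BMPR2 (-0.04) and ACVR1 (0.03) were not called. SMAD1, which carries the signal, had 2221 and 2694 normalized counts against 347 and 402 and was below the fold threshold (-2.71 ± 0.19), while SMAD5 (-0.01) was not called. Among the targets, ID2 (-4.32), ID3 (-3.29), MSX2 (-3.60) and the inhibitor SMAD6 (-3.99) fell. ID1 had 3511 and 3775 normalized counts in the outgrowths and 1797 and 455 in Lv-piPSC-F, and was not called (-2.01 ± 0.65, adjusted p = 0.069). The secreted antagonist noggin (NOG) fell too, from 333 and 318 to 2.2 and 1.39 (-6.88 ± 0.54).

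Of 25 TGFB and NODAL genes, 4 fell and 1 rose (median -0.71). The pooled fits had 5 that fell without the first outgrowth, 3 without the second, 3 without the first Lv-piPSC-F sample and 7 without the second, and 0 to 2 that rose. NODAL itself had 3856 and 4372 normalized counts in the outgrowths and 45.1 and 260 in Lv-piPSC-F (-5.23 ± 0.83, adjusted p = 0.0128). LEFTY2, its feedback inhibitor, had 2404 and 2382 in the outgrowths and 2.2 and 224 in Lv-piPSC-F, and with that spread within the line it was not called (-6.48 ± 2.00, adjusted p = 0.0607). The matrix protein TGFBI (-3.31) fell. TGFBR2, a receptor for TGFB ligands, rose from 77.7 and 59 to 648 and 812 (3.40 ± 0.31, adjusted p = 0.00513), a call lost in 3 of the 4 pooled fits (0.0504 to 0.0825). The shared mediator SMAD4 was not called, with 1762 and 1705 normalized counts against 1776 and 1820.

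**Figure D4:**
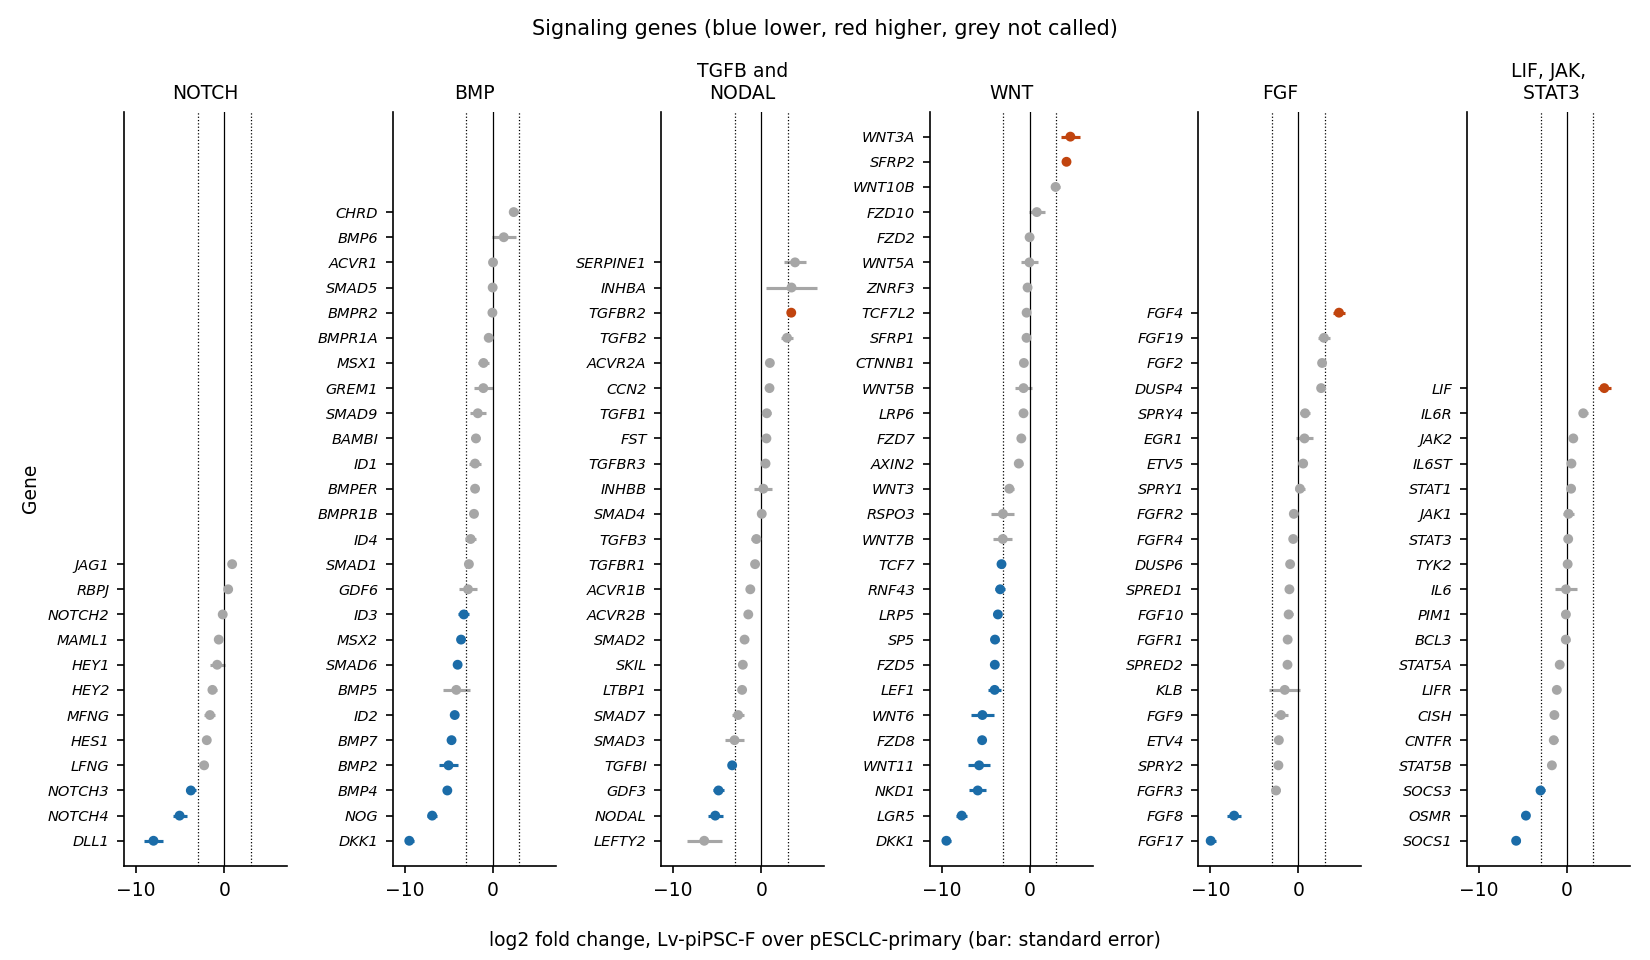
Log2 fold change (x, bars ± standard error) of members of 6 signaling lists, 1 gene per line, with DEGs in blue (lower in Lv-piPSC-F) or orange (higher), other genes in grey and dotted lines at a log2 fold change of -3 and 3. FGF17, DKK1, which is in the BMP and the WNT list, DLL1, LGR5 and FGF8 lie farthest to the left.

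The WNT list held 12 genes that fell and 2 that rose among 29 (median -2.33), and 9 or 10 that fell and at most 1 that rose in the pooled fits. DKK1, a secreted WNT antagonist (chr14:97487854-97490118), had 919 and 743 normalized counts in the outgrowths and 0 and 0.348 in Lv-piPSC-F, where it had 1 read in all (-9.48 ± 0.54, adjusted p = 0.00344). LGR5, a receptor for R-spondins, went from 1730 and 1438 to 12.1 and 3.13 (-7.74 ± 0.65). The receptors FZD8 (-5.42) and FZD5 (-3.98), the nuclear factors LEF1 (-4.00) and TCF7 (-3.22), and the targets NKD1 (-5.92) and SP5 (-3.96) fell as well. WNT3A, a canonical ligand, rose from 5.9 and 0 to 57.2 and 68.9 (4.60 ± 1.09, adjusted p = 0.0315), although WNT6 and WNT11 fell, and edgeR did not call WNT3A or WNT6 (adjusted p = 0.0594 and 0.0606). The effector CTNNB1 (-0.68) and the target AXIN2 (-1.26) were not DEGs. The other gene that rose was the antagonist SFRP2 (4.16 ± 0.45). The calls of WNT3A and SFRP2 were each lost in at least 1 alternative fit, so the rising side of this list is uncertain.

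Of 22 FGF genes, 2 fell and 1 rose (median -0.98), shares of 9.09% and 4.55%. In the pooled fits 2 rose without the first outgrowth and 4 fell without the first Lv-piPSC-F sample. FGF17, a ligand of the FGF8 subfamily, had 1445 and 920 normalized counts in the outgrowths and 0 and 0.348 in Lv-piPSC-F (-9.96 ± 0.56, adjusted p = 0.00344). FGF8, which acts in gastrulation, had 309 and 275 against 0 and 2.44 (-7.30 ± 0.80). FGF4, whose call was lost with a pseudocount of 5, was the gene that rose. FGF2 had 145 and 90.7 normalized counts in the outgrowths and 792 and 701 in Lv-piPSC-F, just below the threshold (2.69 ± 0.32). The receptor FGFR1 and the feedback genes SPRY2 and ETV4 were lower in both Lv-piPSC-F samples but below the threshold, and DUSP4, a phosphatase of the same pathway, was higher by 2.58.

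Of 12 NOTCH genes, 3 fell and none rose (median -1.48). DLL1, a ligand of NOTCH receptors, had 1060 and 942 normalized counts in the outgrowths and 9.9 and 0.348 in Lv-piPSC-F (-8.03 ± 1.07, adjusted p = 0.00917). The receptors NOTCH4 (-5.07) and NOTCH3 (-3.79) fell, the latter by 2.95, under the threshold, without the second Lv-piPSC-F sample. The target HES1 was lower by 1.98 and was not a DEG. In the LIF, JAK and STAT3 list, 1 of 19 genes rose and 3 fell (median -0.12). The pooled fits had 2 that fell without the first outgrowth, 3 without the first Lv-piPSC-F sample and 1 without either of the others, and none rose without the first outgrowth or the second Lv-piPSC-F sample. The cytokine LIF had 2.95 and 10.9 normalized counts in the outgrowths and 103 and 159 in Lv-piPSC-F (4.24 ± 0.76, adjusted p = 0.0165), a call lost in 2 of the 4 pooled fits (0.0777 and 0.115). The feedback inhibitor SOCS1 fell from 529 and 743 to 12.1 and 9.05 (-5.77 ± 0.44), and the receptor chain OSMR fell by 4.66, a call lost in 3 of the 4 pooled fits (adjusted p from 0.0532 to 0.0625). SOCS3, with 471 and 650 normalized counts against 103 and 44.9, was a DEG just past the fold threshold, and was not with DESeq2 (-2.95) or edgeR (-2.94). STAT3 (0.14) and the shared receptor IL6ST (0.51) were not called.

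Matrix and adhesion genes changed one by one. Of 19 fibroblast and stroma genes, 2 rose and 2 fell, 10.5% each, against 3.03% and 5.45% of all genes tested (median -1.88). Fibronectin (FN1), a matrix protein, was the most abundant gene of the list, with 300932 and 380116 normalized counts in the outgrowths and 1610 and 4743 in Lv-piPSC-F (-6.93 ± 0.54, adjusted p = 0.00418). The matrix gene FBLN1 fell by 4.60, while LOX, which cross-links collagen, rose by 4.10 and S100A4 by 4.28. S100A4 was not called in the fit on all 14 samples (adjusted p = 0.0919) or in any pooled fit (0.175 to 0.28), and in each of these fits without 1 sample 1 gene of the list rose. Vimentin (VIM), a filament of mesenchymal cells, had 4892 and 4252 normalized counts against 12458 and 18414 (1.73 ± 0.23). Some collagens separated the Lv-piPSC-F duplicates instead: COL1A1 had 2053 and 1318 normalized counts in the outgrowths and 46.2 and 11309 in Lv-piPSC-F. COL3A1 was 12636 and 7644 against 1.1 and 1785 (-7.33 ± 3.16, adjusted p = 0.131). COL5A1 (-2.34 ± 0.43) and COL6A1 (-2.36 ± 0.61) were lower in both Lv-piPSC-F samples but below the fold threshold. The list summed to 344520 and 418902 normalized counts in the outgrowths, mostly FN1, and to 33104 and 64553 in Lv-piPSC-F. The part of mouse or other stromal cells in this difference was not tested.

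Of 15 epithelial junction genes, 2 fell (13.3%, against 5.45% of all genes tested) and none rose (median -0.73). GRHL2, a factor of epithelial identity, had 1643 and 1691 normalized counts in the outgrowths and 58.3 and 2.09 in Lv-piPSC-F (-6.94 ± 1.42, adjusted p = 0.0221), and P-cadherin (CDH3) fell by 3.16, a call lost in 3 of the 4 pooled fits. E-cadherin (CDH1) had 9284 and 11344 against 25547 and 16469 (1.00 ± 0.26), so this epithelial cadherin was abundant in both groups. Of 11 ectoderm and neural genes, 3 rose, SOX3 and ELAVL3 among them, and DCX fell (median 0.21), though none rose in the pooled fit without the second outgrowth or the first Lv-piPSC-F sample and 1 did without the first outgrowth. SOX3 and ELAVL3, of neural progenitors and neurons, were low, with at most 66.0 normalized counts in Lv-piPSC-F, and SOX3 was no longer called in 1 fit on all 14 samples (adjusted p = 0.0612) or in any pooled fit (0.107 to 0.25). ELAVL3 was not called by edgeR (adjusted p = 0.0766) or in 2 of the 4 pooled fits (0.0533 and 0.0833). Its call was also lost with pseudocounts of 0.1 (adjusted p = 0.092) or 5 (2.67, under the fold threshold), and with every gene above 0 tested (0.0598). Of the ectoderm and neural list 27.3% rose and 9.09% fell, against 3.03% and 5.45% of all genes tested.

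The HOX genes, which pattern the body axis, fell in 9 of 25 cases (36%, against 5.45% of all genes tested), and none rose. Their median was -3.63, or -2.61 with genes of at most 3 reads in both samples of a group set to 3 reads. All 25 were higher in the first outgrowth than in the second. HOXB2 had 150 and 63.4 normalized counts in the outgrowths and 0 and 2.79 in Lv-piPSC-F (-5.66 ± 0.95, adjusted p = 0.0143). HOXA9 had 471 and 14.2 against 0 and 1.04 and was not called (-5.89 ± 1.75, adjusted p = 0.0554). When the spread was pooled over all groups, 8 HOX genes fell and 1 rose without the first outgrowth, while 16 fell without the second, 6 without the first Lv-piPSC-F sample and 14 without the second. The 2 genes of the Y chromosome that could be tested also separated the outgrowths. EIF1AY had 270 and 8.74 normalized counts in them and 526 and 863 in Lv-piPSC-F (3.72 ± 1.59, adjusted p = 0.13). KDM5D had 68.9 and 1.09 against 321 and 214.5 (4.45 ± 1.71, adjusted p = 0.102). Both were past the fold threshold without the first outgrowth, and neither was without the second.

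No gene of 22 for cholesterol synthesis and uptake (median -0.10), of 17 for glycolysis (median -0.61) or of 11 for heat shock and stress (median 0.75) was a DEG by limma, and 8, 7 and 3 of them had an unadjusted p under 0.05, as had 7040 of all 14375 genes. The pooled fits called 2 of the cholesterol genes lower without the second outgrowth and 1 without the first or without the second Lv-piPSC-F sample, DESeq2 called 2 lower, edgeR called 1, and none of these called any of the others. GAPDH, a glycolytic enzyme, had 80062 and 87925 normalized counts in the outgrowths and 48221 and 62824 in Lv-piPSC-F (-0.61 ± 0.25). Of 17 interferon response genes 3 rose (17.6%, against 3.03% of all genes tested), with a median of 0.49. MX1, an antiviral GTPase, had 39.4 and 54.7 normalized counts against 867 and 411 (3.66 ± 0.48, adjusted p = 0.00911), PSMB8 rose by 4.54 and ISG15 by 4.55. The last had an adjusted p of 0.05 and was not called by edgeR (adjusted p = 0.0969), with a pseudocount of 0.1 (0.103), with every gene above 0 tested (0.0674), or with size factors (0.0501) or TMM factors (0.0518) set within the 4 samples. No pooled fit called PSMB8 (adjusted p from 0.0748 to 0.182), 3 of the 4 did not call MX1 (0.0686 to 0.0955), and the one without the second outgrowth did not call ISG15 (0.0714). Of 22 cell cycle and senescence genes, CDKN1C fell and CDKN2A, a locus that restrains the cell cycle, rose (median 0.31). These shares, 4.55% each way, were near the 5.45% lower and 3.03% higher of all genes tested. CDKN2A had 0 and 3.28 normalized counts in the outgrowths and 112 and 221 in Lv-piPSC-F (6.26 ± 0.94, adjusted p = 0.0115), and was not called in the pooled fit without the first outgrowth (0.0548). The mitotic cyclin CCNB1, at 3628 and 3162 against 6408 and 6665 (0.95 ± 0.14), was below the threshold. Of the 13 genes encoded by the mitochondrial chromosome, a list added after the data had been seen (median 1.14), ND6 rose, from 1317 and 492 to 23378 and 9917 (4.24 ± 0.62). ND6 lies on the other strand from the remaining 12 and overlaps the end of ND5, so its count may hold reads of its neighbor. ND5 next to it had 66788 and 62703 against 78026 and 48616.

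The 15 genes that rose most had at most 79.8 normalized counts in either outgrowth. ADGRG2, an adhesion G protein-coupled receptor of the X chromosome, had 3.94 and 4.37 normalized counts in the outgrowths and 4068 and 1819 in Lv-piPSC-F (9.05 ± 0.51, adjusted p = 0.00344). PCOLCE2, an enhancer of procollagen processing, went from 1.97 and 1.09 to 1260 and 1336 (9.03 ± 0.47). USP44, a deubiquitinase of the mitotic checkpoint and of histone H2B, went from 47.2 and 16.4 to 6803 and 3410 (7.38 ± 0.61). HENMT1, which methylates the ends of piRNAs, had 34.4 and 27.3 normalized counts against 4401 and 4482 (7.13 ± 0.23, adjusted p = 0.00242), with close duplicates on both sides. CAV1, the coat protein of caveolae, had 76.7 and 79.8 normalized counts in the outgrowths and 9919 and 10110 in Lv-piPSC-F (6.98 ± 0.15, adjusted p = 0.00233). The fit on all 14 samples did not call it (adjusted p = 0.0546), nor did any pooled fit (0.14 to 0.167). It was also high in Epi-piPSC-FLB2i, at 6417 and 5627. FABP7, a fatty acid binding protein of neural progenitors, rose from 56.1 and 32.8 to 6640 and 4434, but the 8 samples grown in the inhibitor media FLB2i and FL6i had between 1414 and 11856. LRP11 and CTBS had no read in the outgrowths and were at least 55.7-fold and 28.5-fold higher. PAX5, a factor of B cells and midbrain, had 2.95 and 0 normalized counts against 687 and 228 (7.64 ± 0.98). CYP4B1, CRHR1, NEXN, ABTB3 and CAMKV completed the 15 genes that rose most, together with PRDM14. Of the genes without a symbol, ENSSSCG00000000248 and ENSSSCG00000000245 rose most, by 8.34 and 8.03.

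Beyond the endoderm genes, LHX1, a LIM homeobox gene of the anterior visceral endoderm and streak, fell most. It had 8080 and 6279 normalized counts in the outgrowths and 4.4 and 1.04 in Lv-piPSC-F (-11.07 ± 0.56, adjusted p = 0.00344). SPON1, the matrix protein F-spondin, went from 13716 and 17324 to 19.8 and 5.22 (-10.40 ± 0.61). C4BPA, an inhibitor of complement, went from 5436 and 5129 to 7.7 and 5.92 (-9.41 ± 0.30). The adhesion molecule SDK1 (-10.15), the secreted protein CBLN4 (-9.86), the ion channel TRPM8 (-9.60) and the actin-binding SYNPO2 (-9.24) fell too. So did ENSSSCG00000006256 (-10.72) and ENSSSCG00000003984 (-9.66), which have no symbol here.

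A group of zinc finger genes was expressed in every other sample of the series and had almost no reads in Lv-piPSC-F. This list, all symbols of the form ZNF with a number, was made after the values had been seen, and most of these genes encode DNA-binding proteins, many of them repressors of transposable elements. Of 230 tested, 20 fell (8.7%) and none rose, with a median of -0.51, against 5.45% lower and a median of -0.03 over all genes. The pooled fits without 1 sample had 20 to 23 that fell. ZNF8 (chr6:62894617-62914448) had 426 and 459 normalized counts in the outgrowths, between 373 and 501 in all 12 samples other than Lv-piPSC-F, and no read in either Lv-piPSC-F sample (-8.79 ± 0.56, adjusted p = 0.0035, at least 129-fold lower). ZNF286A (chr12:58964413-58981569) had 334 and 371 in the outgrowths, 68.1 to 769 in the 12 samples, and none in Lv-piPSC-F, at least 101-fold lower. ZNF613, ZNF470 and ZNF772 also had no read in either Lv-piPSC-F sample and were at least 48-, 44- and 25.9-fold lower. The plot of zinc finger genes shows 2 points at 0 for these genes and the other 12 samples well above.

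**Figure D5:**
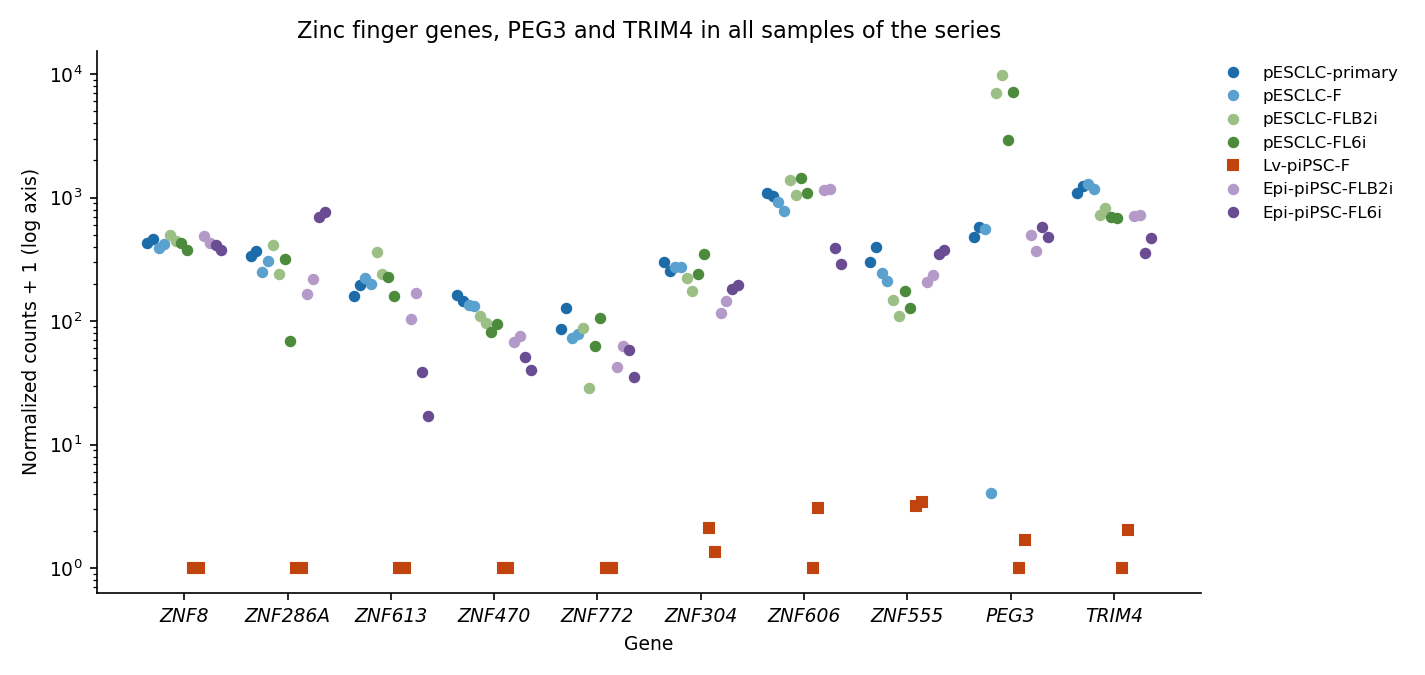
Normalized counts (+ 1, log axis) of 8 zinc finger genes, PEG3 and TRIM4 in all 14 samples, with circles for the 6 other groups, each in its color, and orange squares for Lv-piPSC-F. The squares lie at 2.44 normalized counts or less in all 10 genes, and apart from 1 pESCLC-F sample for PEG3 (3.03) every circle lies well above them.

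In all, 29 genes that fell had at most 3 reads in both Lv-piPSC-F samples and at least 10 normalized counts in each of the other 12 samples. Of these, 15 had a symbol and 8 were ZNF genes, while 230 of all 11929 tested genes with a symbol were ZNF genes. The set was picked after the values had been seen, for being near 0 in Lv-piPSC-F, so its make-up is a description. TRIM4, a ubiquitin ligase of the tripartite motif family, was another, with 1078 and 1246 normalized counts in the outgrowths, at least 351 in all 12 other samples and 0 and 1.04 in Lv-piPSC-F (-9.66 ± 0.59). Several of the ZNF genes lie near PEG3 on chromosome 6. Between ZNF470 and ZNF8 (chr6:60857063-62914448) 6 tested genes had a position, and ZNF470, PEG3, ZNF304, ZNF135 and ZNF8 fell, though ZNF135 was not called with a pseudocount of 0.1 (adjusted p = 0.0635). ZNF329, between ZNF135 and ZNF8, had 279 and 343 normalized counts in the outgrowths and 61.6 and 128 in Lv-piPSC-F and was not called (-1.79 ± 0.46). TRIM28, the corepressor that many such proteins bind, had 13798 and 13830 normalized counts against 11676 and 10870 (-0.29 ± 0.14).

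The 250 bases before the start of ZNF8 (chr6:62894367-62894616), ZNF286A (chr12:58964163-58964412) and ZNF470 (chr6:60903924-60904173) are printed because these genes had 0 reads in the line, with each CG dinucleotide in capitals. They are from RefSeq for Sscrofa11.1, on the plus strand for ZNF8 and ZNF286A and on the minus strand for ZNF470.
ZNF8: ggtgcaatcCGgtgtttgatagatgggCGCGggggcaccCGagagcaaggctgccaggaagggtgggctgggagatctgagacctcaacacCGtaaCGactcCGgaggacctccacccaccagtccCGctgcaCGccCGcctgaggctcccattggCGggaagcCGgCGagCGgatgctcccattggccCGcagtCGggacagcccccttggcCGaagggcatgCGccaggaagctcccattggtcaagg
ZNF286A: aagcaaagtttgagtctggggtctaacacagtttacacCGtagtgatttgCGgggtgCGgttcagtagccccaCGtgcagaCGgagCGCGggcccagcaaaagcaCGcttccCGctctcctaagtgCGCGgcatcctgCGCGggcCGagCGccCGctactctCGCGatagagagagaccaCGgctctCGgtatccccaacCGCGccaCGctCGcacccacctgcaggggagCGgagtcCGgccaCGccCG
ZNF470: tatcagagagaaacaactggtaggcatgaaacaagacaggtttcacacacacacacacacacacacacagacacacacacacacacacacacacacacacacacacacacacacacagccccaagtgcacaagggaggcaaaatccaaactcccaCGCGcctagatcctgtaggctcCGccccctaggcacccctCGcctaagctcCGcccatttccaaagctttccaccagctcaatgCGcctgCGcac
These windows hold 18, 28 and 7 CG dinucleotides. Over the 11161 promoters the median was 16, over the 11 ZNF genes that fell and had a promoter sequence it was 21, and over the 196 ZNF genes tested with one it was 15.5. Of all promoters 71.8% held at least 10 CG, of the 332 of genes that rose 62.3%, and of the 582 of genes that fell 54.1%. The 11 hypoblast genes that fell had a median of 8. No methylation was measured in these samples.

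Neighboring genes fell together at a few other places. The kallikrein genes KLK5, KLK8, KLK9, KLK10, KLK11 and KLK12, which encode secreted serine proteases, were consecutive DEGs on chr6:55618094-55692706, and all 6 fell. The run was broken at KLK8, which was not called by edgeR (adjusted p = 0.0559), with the replicate block (0.0532), with pseudocounts of 0.1 (0.0622) or 5 (-2.11, under the fold threshold), or with every gene above 0 tested (0.0526). KLK10 was also under the fold threshold with a pseudocount of 5 (-2.78), and KLK12 was lost in the pooled fit without the first outgrowth (-2.97, adjusted p = 0.0815). KLK9 went from 128 and 104 normalized counts to 0 and 0.696 (-6.48 ± 0.67), and KLK5 from 355 and 448 to 48.4 and 14.3. APOA4, APOC3 and APOA1 formed such a run on chr9:44201587-44218360, which was broken at APOA4 with a pseudocount of 5 (-2.82). APOC3, an inhibitor of lipoprotein lipase, had 146 and 175 normalized counts in the outgrowths and no read in Lv-piPSC-F, at least 44.1-fold lower. Leaving aside the Y chromosome, with 1 gene tested, the share of DEGs by chromosome ran from 5.14% of 253 genes on chromosome 10 to 13% of 385 on chromosome 8.

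The Lv-piPSC-F duplicates differed widely in many genes that were not called. TLCD1, a lipid-related membrane protein, had 107 and 138 normalized counts in the outgrowths and 14164 and 69.6 in Lv-piPSC-F (3.03 ± 2.49, adjusted p = 0.376). SLC35B2, a transporter of the sulfate donor PAPS, had 300.0 and 355 against 25826 and 235. The largest such value belonged to ENSSSCG00000037674, chosen after its values were seen, with 14.8 and 5.47 normalized counts in the outgrowths and 123349 and 25.4 in Lv-piPSC-F. In the other direction CYP1A1, a cytochrome P450 induced by aryl hydrocarbons, had 205 and 126 normalized counts against 745 and 20737 (4.61 ± 1.58, adjusted p = 0.0779). INHBA, the activin A subunit, had 23.6 and 6.56 against 6.6 and 2835. HAND1, RIBC1, TMEM79, METTL27 and SLC28A3 were present in the first sample and at or near 0 in the second, and POSTN was the reverse. SLC28A3, a nucleoside transporter, had 3613 and 9646 normalized counts in the outgrowths and 247 and 0 in Lv-piPSC-F (-8.55 ± 2.62, adjusted p = 0.0597).

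The same Lv-piPSC-F samples were set against 2 other groups, so these comparisons share them with the one above. Against pESCLC-F, embryo-derived lines at passage 2 in F, 1634 of 14239 genes were DEGs (11.5%), with 764 higher (5.37%) and 870 lower (6.11%). Against Epi-piPSC-FL6i, an induced line made with episomal vectors in a medium with FGF2, LIF and 6 inhibitors, 806 of 13988 were (5.76%), with 352 higher (2.52%) and 454 lower (3.25%). The hypoblast list had 18 of 22 genes lower relative to pESCLC-F, and HNF4A differed by -13.26. Relative to Epi-piPSC-FL6i none of 11 was lower and 2 were higher. DNMT3B was higher than in pESCLC-F by 4.21, and was not a DEG relative to Epi-piPSC-FL6i (1.31). NANOG differed by 1.05 from pESCLC-F, not called, and was higher by 8.23 than in Epi-piPSC-FL6i, where it had 0.966 and 0.999 normalized counts. PRDM14 was higher by 7.68 in both comparisons. ZNF8 had log2 fold changes of -8.67 and -8.61, and the zinc finger list had 21 of 228 genes lower in the first comparison and 18 of 228 in the second, with 2 and 0 higher. BMP4 was lower than in pESCLC-F (-5.22) and was not a DEG relative to Epi-piPSC-FL6i (-1.09). EOMES was lower than in pESCLC-F (-6.25) and higher than in Epi-piPSC-FL6i (adjusted p = 0.0488), and GSC was lower than the first (-4.89) and higher than the second (3.94).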

How the data were processed

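Total RNA was sequenced as 50 bp read pairs from stranded mRNA libraries. The authors aligned reads to Sscrofa11.1 with TopHat2 2.1.0, counted them per gene with HTSeq and deposited DESeq2-normalized counts, a signal per gene in which every value (100%) was a whole multiple of the worth of 1 read to within 0.001 reads. The annotation release is not given in the sources used here. These values were tested with limma 3.58.1 (R 4.3.3) on log2(normalized count + 1) with a trend in the prior variance, where 2 or more of the compared samples reached 10 normalized counts. The study used DESeq2. On the recovered reads DESeq2 1.42.0 called 1421 DEGs and edgeR 4.0.16 called 1177. Both, with other pseudocounts, filters, scalings and samples, were the alternatives. Scripts were tested on simulated data.

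The table holds identifiers only. Symbols could be paired with 14150 of its 19588 genes, and RefSeq positions with 13165. Promoter sequences could be matched to 11161 of the genes tested. Where genes overlap or have near-identical copies, as zinc finger genes can, reads can be assigned to the wrong gene. Named genes were all members of the pluripotency core and reprogramming lists, up to 4 DEGs of each other list with the largest change and no overlap, the 2 most abundant members where a list had fewer than 2 DEGs, the 15 genes that rose and fell most with a mean of at least 100 in the higher group, the 10 that differed most between the Lv-piPSC-F samples, and up to 2 genes without a symbol in each direction. Others, such as further list members, the KLK genes and most ZNF genes, were chosen after their values were seen. The members and lists were chosen with earlier results of these data known. Some genes that the rule names, and 1 of the 4 promoter motifs searched, are not reported here.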

Additional observations from a re-analysis of the deposited data

How the results depend on the processing

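Lowering the fold threshold to 3-fold raised the DEGs to 2735 against pESCLC-primary, 3232 against pESCLC-F and 1796 against Epi-piPSC-FL6i, from 1218, 1634 and 806. All other settings that left out no sample kept the 3 counts within 1.5 times, from 921 to 1421 against pESCLC-primary. Leaving out each sample in turn gave 0 to 1767 DEGs against pESCLC-primary, 0 to 2029 against pESCLC-F and 0 to 1473 against Epi-piPSC-FL6i. The count was 0 in limma whenever a reference sample was left out, because the spread then came from the Lv-piPSC-F pair alone, and 4283 and 3801 genes against pESCLC-primary still had an unadjusted p under 0.05, 4383 and 4690 against pESCLC-F and 2749 and 2735 against Epi-piPSC-FL6i. In fits added after the data had been seen, which pooled the spread over the other 13 samples and assume that a lone sample varies like the other groups, the ranges were 1009 to 1584, 1452 to 1959 and 581 to 1213, the last without the second Lv-piPSC-F sample. Of 217 named genes 108 were DEGs, and 90 of these were called under every setting that left out no sample and tested them. In 2 genes that were not DEGs a fit without 1 sample made a call against the direction of the value from all 4 samples: leaving out each sample in turn, the log2 fold change ran from -4.76 to 3.89 for TMEM79 and from -4.08 to 4.19 for METTL27, the ends being those without the first and without the second Lv-piPSC-F sample. Genes with few reads in 1 group are limited by depth, since 3 reads are 2.95 and 3.28 normalized counts in the outgrowths and 3.3 and 1.04 in Lv-piPSC-F.

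With the replicate number as a block the counts were 1267, 1638 and 721. The deviations of same-numbered samples correlated at -0.0597, -0.00285 and 0.0867. With 2 samples per group this cannot decide whether the numbers pair the samples. The labels pair none, so the main fit had no block.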
